A study of Mus musculus with 4 samples.

Results

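Genes that make, cut and bind hyaluronan were followed in the CD45-negative cells of the mouse lung, CD45 being the protein that marks leukocytes. The group holds 10 listed genes: the hyaluronan synthases Has1, Has2 and Has3, the hyaluronan-degrading genes Hyal1, Hyal2 and Cemip, the receptor gene Cd44, and the genes Vcan, Hapln1 and Tnfaip6, whose proteins build hyaluronan into the matrix. A gene was measured where a row of the deposited table is annotated to it alone, and where it has several such rows the one with the highest mean was taken. This gave 9 of the 10 members among 30743 genes tested. The only row that names Hyal1 names 3 genes, so Hyal1 has no value here, and Cemip was kept because its row lists only Cemip and an older symbol of the same gene.

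BLM lungs came from C57BL/6 mice 10 days after bleomycin (BLM) was given into the trachea, and PBS lungs from C57BL/6 mice 10 days after phosphate-buffered saline (PBS) was given by the same route. Bleomycin breaks DNA and, given this way, injures the lung and is followed by scarring. Each group has 2 Affymetrix arrays of total RNA, and the labels leave unsaid whether these are from different animals. The p-values therefore rest on the spread between samples that may be technical repeats.

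Hyaluronan is a long, unbranched sugar polymer of the extracellular matrix, built at the cell surface from UDP-glucuronate and UDP-N-acetylglucosamine by the Has enzymes and released straight into the pericellular space. Hyaluronidases cut it into fragments, link proteins and proteoglycans such as versican hold it in a hydrated matrix, and receptors such as Cd44 tether it to cells. In injured lung it is known to accumulate early, and fibroblasts are a known source.

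Values are log2 expression levels, and each difference is the BLM mean less the PBS mean, given with a standard error (SE). A gene is said to rise or fall only where its adjusted p was under 0.05 in the limma fit over all 30743 genes (Benjamini-Hochberg). Of the 9 measured members, 8 rose, none fell and 1, Has3, did not pass; at an unadjusted p under 0.05 the count was again 8, against 37.1% of all genes. Over all genes tested, 24.9% passed, of which the larger part rose (14.9% of all genes) and the rest fell (10.0%). The members' median difference was 0.84, against 0.05 over all genes tested. Vcan, Cemip, Has2 and Cd44 rose at least 2-fold, a change seen in 2.78% of all genes tested, and these 4 kept their calls with any 1 array left out. The size for Cemip is uncertain, since 3 of its 4 values lay within the range of the array's background probes. The calls of Has1, Hapln1, Tnfaip6 and Hyal2 each ended in at least 1 such fit.

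The upstream sequences of 4 members that rose are shown so that the letters at their starts can be read beside the values that follow. They are the 250 bases before the start given for each gene in a table of RefSeq promoters on GRCm38.p6, 5′ to 3′ on the gene's own strand. The windows of Vcan and Has1 lie wholly, and that of Cemip partly, inside the span RefSeq gives the gene, so they precede 1 start of the gene and not its outermost one. Capitals mark matches, on either strand, to any of 5 motifs: AP-1 (TGANTCA), the cyclic AMP response element (TGACGTCA), the GC box (GGGCGG), the TATA box (TATAAA) and the NF-kB site. Vcan lies at chr13:89742513-89742762, minus strand, Has1 at chr17:17855189-17855438, minus strand, Tnfaip6 at chr2:52037863-52038112, plus strand, and Cemip at chr7:84086506-84086755, minus strand.
Vcan: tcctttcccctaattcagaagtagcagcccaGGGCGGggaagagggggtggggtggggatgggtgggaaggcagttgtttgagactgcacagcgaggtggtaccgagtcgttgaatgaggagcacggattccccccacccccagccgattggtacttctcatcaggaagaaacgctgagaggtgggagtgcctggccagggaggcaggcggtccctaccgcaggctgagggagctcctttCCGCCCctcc
Has1: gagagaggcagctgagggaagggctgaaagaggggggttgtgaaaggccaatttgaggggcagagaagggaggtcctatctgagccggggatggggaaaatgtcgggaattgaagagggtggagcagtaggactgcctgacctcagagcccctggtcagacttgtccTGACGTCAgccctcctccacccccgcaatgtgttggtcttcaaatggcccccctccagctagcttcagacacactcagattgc
Tnfaip6: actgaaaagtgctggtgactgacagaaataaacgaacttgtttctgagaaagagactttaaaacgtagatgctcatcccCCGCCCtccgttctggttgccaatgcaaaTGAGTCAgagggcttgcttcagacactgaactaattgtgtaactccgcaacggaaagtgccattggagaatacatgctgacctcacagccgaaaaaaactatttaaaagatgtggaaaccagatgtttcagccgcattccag
Cemip: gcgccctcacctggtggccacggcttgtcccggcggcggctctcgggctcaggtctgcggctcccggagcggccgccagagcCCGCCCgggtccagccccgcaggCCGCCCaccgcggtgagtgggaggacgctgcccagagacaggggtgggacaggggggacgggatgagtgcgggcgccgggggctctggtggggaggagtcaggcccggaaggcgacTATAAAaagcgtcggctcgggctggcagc

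Promoters matched by symbol for 8 of the 10 members, all but Has2 and Has3. The GC box was found in 5 of the 8, at Vcan, Tnfaip6, Cemip, Hyal1 and Hyal2, and in 32.7% of all 32851 promoter windows of this length. The AP-1 match of Tnfaip6, a class of element bound by Fos and Jun proteins, stood 142 to 136 bases before the start and was the only one among the 8, against 6.75% of all windows. Has1 alone held the cyclic AMP response element, 83 to 76 bases before the start, against 1.55% of all windows. A TATA box stood 29 to 24 bases before the start of Cemip and in 12.4% of all windows. The NF-kB site, found in 3.9% of all windows, occurred among the members only at Hyal2. Cd44 and Hapln1 held none of the 5 motifs. The window of Hyal2 lies wholly, and those of Cd44 and Hapln1 partly, inside the span RefSeq gives the gene. These windows therefore also precede 1 start of the gene and not its outermost one. Each match describes letters in the window and not binding. The GC boxes of Hyal1 share 1 base, and no other matches overlapped.

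Xist, a noncoding RNA made from the inactive X of females, stood at 5.60 and 5.43 on the BLM arrays, against 15.86 and 15.61 on the PBS arrays, while the Y-linked gene Eif2s3y stood at 9.08 and 9.05 on the BLM arrays, against 5.99 and 6.88 on the PBS arrays. The labels give no sex, so treatment and this split cannot be told apart. The 23 rows named as background probes had medians of 3.72 and 3.63 on the BLM arrays, against 3.75 and 3.60 on the PBS arrays, and their highest values were 6.30 and 6.35 on the BLM arrays, against 7.07 and 6.39 on the PBS arrays. Of the members, Has3 lay within the range of these rows on all 4 arrays, and Hapln1 and Cemip on 3 of 4, both PBS arrays and 1 BLM array. Of the other pathway genes named below as higher or lower, Stab2 lay within it on all 4 arrays, Itih3 and Adamts4 on both PBS arrays, and Tlr2 on PBS replicate 1. Of the markers named with values, Ptprc and Reln lay within it on both PBS arrays, Prox1 and Eif2s3y on PBS replicate 1, and Xist on both BLM arrays.

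Of the synthases, which extend the chain at the plasma membrane, Has1 and Has2 rose and Has3 did not pass. Has2, the synthase that is essential for embryonic heart development in mice, had levels of 8.70 and 8.65 on the BLM arrays, against 7.54 and 7.54 on the PBS arrays. The arrays of each group lay close together, and the groups were far apart. The difference was 1.13 (SE 0.08, adjusted p = 0.000966), or 2.19-fold.

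Has1 stood at 8.38 and 8.66 on the BLM arrays, against 8.02 and 7.82 on the PBS arrays. Both BLM values were above both PBS values, but the arrays of a group differed more than for Has2. Has1 rose by 0.60 (SE 0.13, adjusted p = 0.0256), or 1.51-fold. Leaving out replicate 2 of either group ended the call, with 0.46 (adjusted p = 0.105) for the BLM array and 0.50 (adjusted p = 0.0940) for the PBS array.

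Has3, the third synthase, had levels of 5.48 and 5.66 on the BLM arrays, against 5.59 and 5.64 on the PBS arrays, so the groups overlapped. Its difference was -0.04 (95% interval -0.29 to 0.20, adjusted p = 0.788), and 0.04 without BLM replicate 1. The interval of Has2, 0.93 to 1.33, and that of Has1, 0.27 to 0.92, both lay above that of Has3. All 4 values of Has3 lay inside the range of the background rows, so the size of its difference is uncertain. The difference between synthases was not itself tested.

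**Figure D1:**
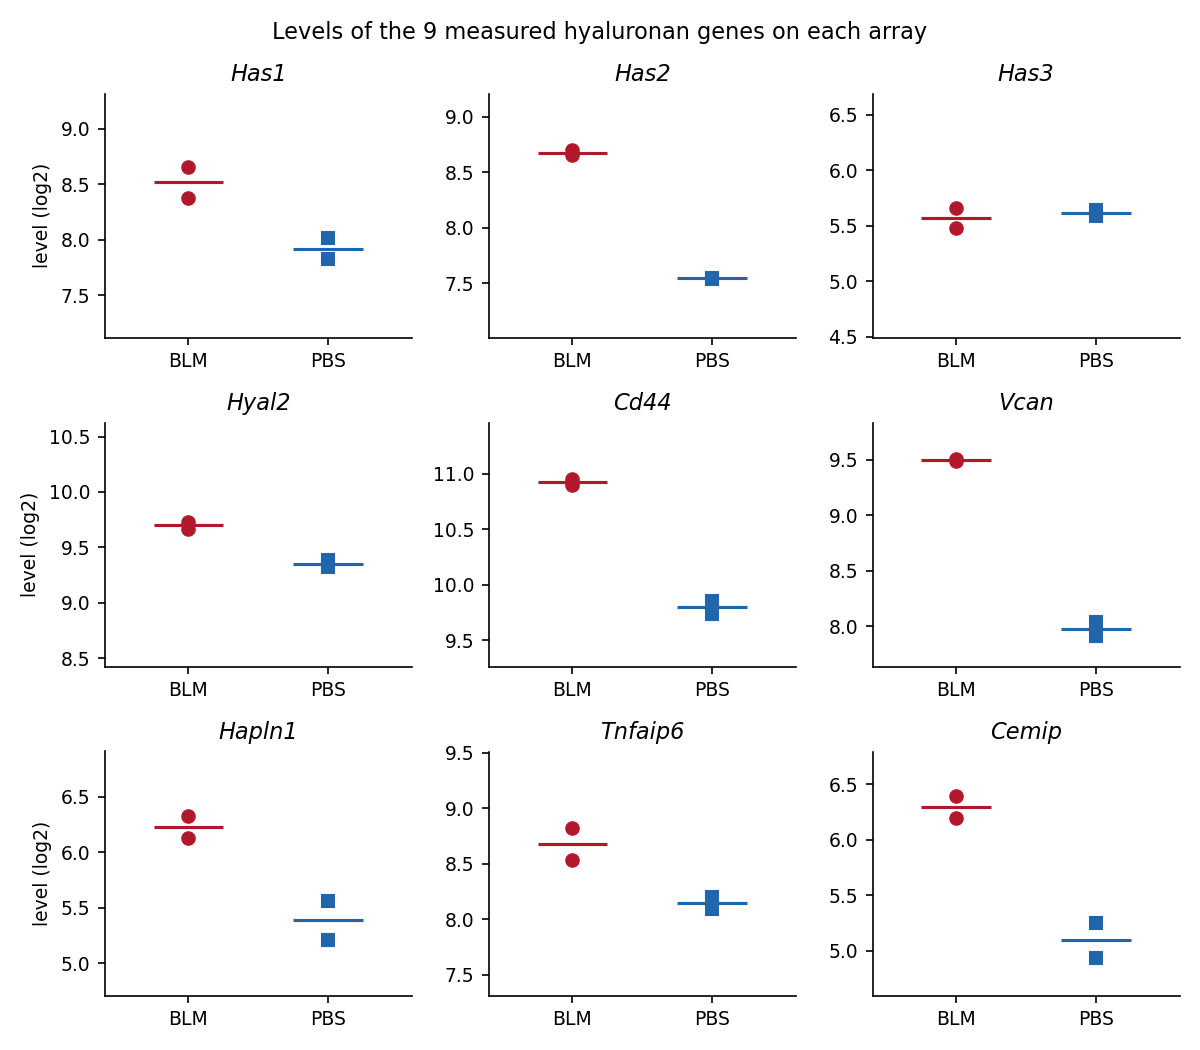
Level of each measured hyaluronan gene (y axis, log2, each panel spanning the same range of log2 units around its own centre) on the BLM arrays (red circles, left) and the PBS arrays (blue squares, right), with horizontal lines at the group means. In every panel except Has3 both BLM arrays lie above both PBS arrays.

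Among the genes of hyaluronan breakdown, Cemip and Hyal2 rose. Cemip encodes a hyaluronan-binding protein needed for hyaluronan depolymerisation in fibroblasts. Its levels were 6.20 and 6.40 on the BLM arrays, against 5.25 and 4.93 on the PBS arrays. It rose by 1.20 (SE 0.14, adjusted p = 0.00373). Both PBS arrays and BLM replicate 1 lay inside the range of the background rows, so the size of the difference is uncertain. Leaving out 1 array at a time gave differences of 1.04 to 1.36.

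Hyal2, a hyaluronidase anchored at the cell surface, stood at 9.73 and 9.66 on the BLM arrays, against 9.38 and 9.32 on the PBS arrays. The groups did not overlap, but the gap was small. The difference was 0.34 (SE 0.08, adjusted p = 0.0364), or 1.27-fold. This call ended without any 1 of the arrays (adjusted p = 0.0791 to 0.190), with cyclic loess scaling (0.24, adjusted p = 0.0972) and with the replicate number as a block (adjusted p = 0.0604).

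The proteins that organise hyaluronan in the matrix were represented by Vcan, Hapln1 and Tnfaip6, and all 3 genes rose. Vcan, which encodes versican, a large chondroitin sulfate proteoglycan that binds hyaluronan at its amino-terminal end, had levels of 9.49 and 9.51 on the BLM arrays, against 7.91 and 8.04 on the PBS arrays. The groups lay wide apart. Vcan rose by 1.52 (SE 0.09, adjusted p = 0.000576), or 2.88-fold, with 1.46 to 1.59 when 1 array was left out.

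Hapln1, the neighbour of Vcan on chromosome 13 with 0 protein-coding genes between them in the RefSeq table, encodes a link protein that locks proteoglycans onto hyaluronan. It stood at 6.33 and 6.13 on the BLM arrays, against 5.21 and 5.56 on the PBS arrays. The groups did not overlap, and the PBS arrays were the further apart. Hapln1 rose by 0.84 (SE 0.15, adjusted p = 0.0131). Both PBS arrays and BLM replicate 2 lay inside the range of the background rows, so the size of the difference is uncertain. The call ended without BLM replicate 1 (0.75, adjusted p = 0.0641).

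Tnfaip6 encodes the secreted protein TSG-6, which transfers the heavy chains of inter-alpha-inhibitor onto hyaluronan. Its levels were 8.53 and 8.82 on the BLM arrays, against 8.09 and 8.19 on the PBS arrays. BLM replicate 2 was the highest and the groups did not overlap. The difference was 0.54 (SE 0.12, adjusted p = 0.0308), or 1.45-fold. This call was lost without BLM replicate 2 (0.39, adjusted p = 0.119), without PBS replicate 1 (0.48, adjusted p = 0.112), without PBS replicate 2 (0.59, adjusted p = 0.0712) and with cyclic loess scaling (0.46, adjusted p = 0.0523).

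Cd44, the main cell-surface receptor for hyaluronan, stood at 10.90 and 10.95 on the BLM arrays, against 9.74 and 9.85 on the PBS arrays. The values within a group were close together and the groups did not overlap. Cd44 rose by 1.13 (SE 0.09, adjusted p = 0.00121), or 2.19-fold. All 8 members that rose had both BLM arrays above both PBS arrays, a pattern seen in 37.8% of all genes tested, called or not. Genes that pass with 2 arrays per group tend to show it, so it is not separate evidence of a rise. No member had both below, which was seen in 25.3%.

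**Figure D2:**
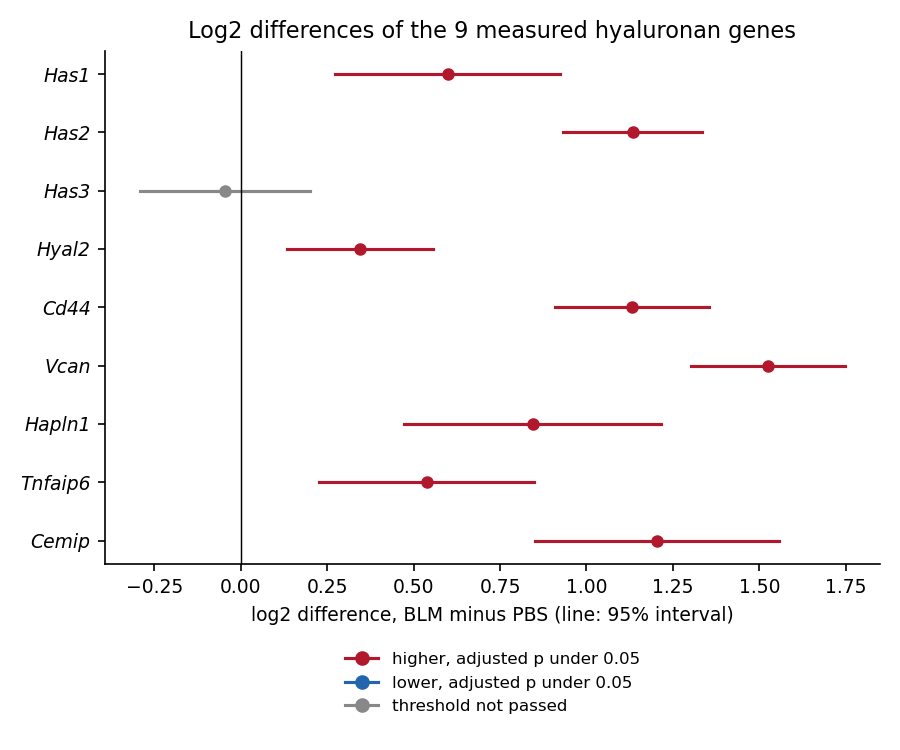
Log2 difference, BLM minus PBS (x axis), of each measured hyaluronan gene (rows), with its 95% interval from the limma fit as a line. The point of Vcan lies furthest right at 1.52, and only the interval of Has3 crosses 0.

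Many cell types other than those of the lung wall carry Cd44, and markers of such cells moved on the same arrays. Ptprc, the gene of CD45 itself, the antigen absent from the labelled cells, stood at 7.19 and 7.20 on the BLM arrays, against 6.30 and 6.21 on the PBS arrays, a difference of 0.94 (SE 0.08, adjusted p = 0.00173). Beside the marker counts that follow, 14.9% of all genes tested rose and 10.0% fell. Of 6 measured leukocyte genes, 4 rose and none fell. Their summed log2 levels were 37.9 to 38.2 on the BLM arrays and 32.7 on both PBS arrays. Of 12 macrophage genes, 9 rose and 1, Lyz2, fell, with summed levels of 114.5 to 114.9 on the BLM arrays, against 91.3 on both PBS arrays. Of 6 neutrophil genes, 3 rose and none fell, with summed levels of 37.3 to 38.2 on the BLM arrays, against 32.4 to 33.0 on the PBS arrays. Of these, 3 of the 6 leukocyte genes, 1 of the 12 macrophage genes and 3 of the 6 neutrophil genes averaged below the median of all genes, 6.02. Every measured leukocyte and neutrophil gene lay within the range of the background rows on at least 2 arrays. Itgam and S100a8, both counted as rising, lay within it on all 4, as did Cd3e, Ncr1, Ly6g, Csf3r and Siglecf. The leukocyte and neutrophil counts and sums therefore rest partly on values near the background. The part of these cell types in the rise of Cd44, or of any other member, was not tested.

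Fibroblast and mesothelial genes rose on these arrays too. Of 7 measured fibroblast genes, 5 rose and 1, Inmt, fell, against 14.9% and 10.0% of all genes tested. Their summed levels were 91.9 to 92.4 on the BLM arrays, against 78.9 to 79.7 on the PBS arrays. Collagen I gene Col1a1 stood at 14.62 and 14.58 on the BLM arrays, against 10.36 and 10.30 on the PBS arrays. The collagen genes had the largest differences on this list, at 4.28 for Col1a1, 3.60 for Col3a1 and 3.12 for Col1a2. Tcf21 rose by 1.53 and Lum by 0.62, and Dcn, at 0.28 (adjusted p = 0.126), did not pass. Of 6 mesothelial genes, 5 rose and none fell, with summed levels of 53.0 to 53.2 on the BLM arrays, against 46.2 to 48.1 on the PBS arrays. Their part in the rise of the synthases and of Vcan was not tested. More cells of a type and more RNA per cell cannot be told apart in such bulk samples.

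Of 47 other hyaluronan pathway genes measured of 49 listed, 13 rose, 4 fell and 30 did not pass. Set against the 14.9% of all genes that rose and the 10.0% that fell, 27.7% of the 47 rose and 8.51% fell. Their median difference was 0.03, against 0.05 over all genes tested, unlike the 0.84 of the members. The lists were drawn up by role, and each is given by its count and its members that passed.

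**Figure D3:**
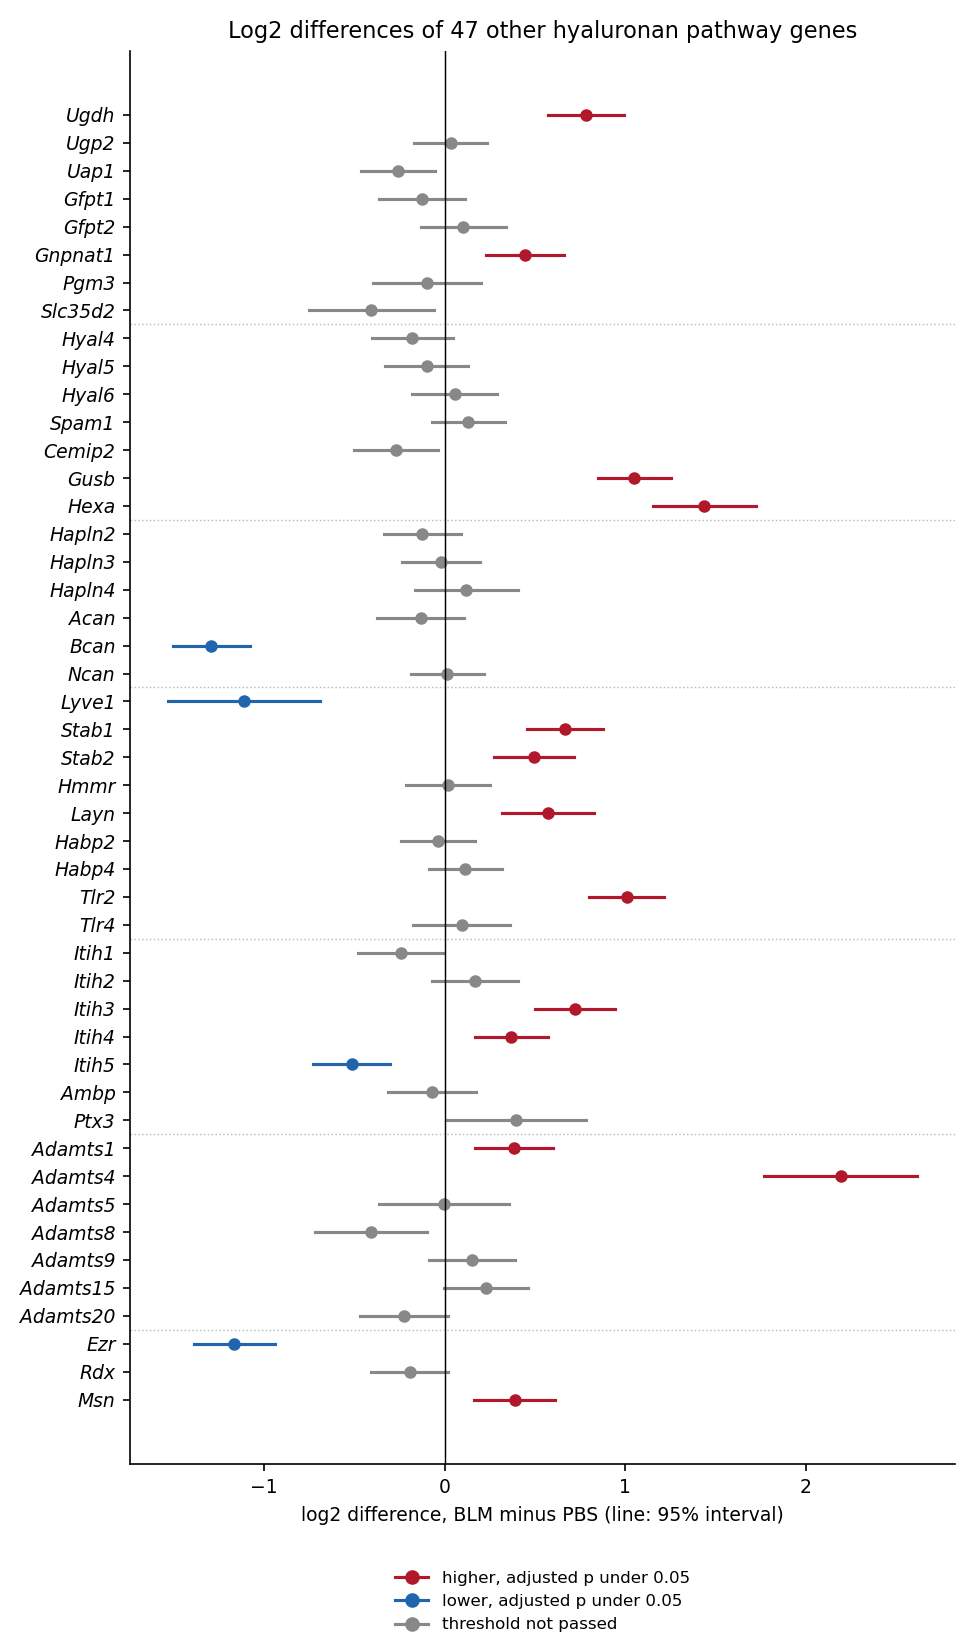
Log2 difference, BLM minus PBS (x axis), with 95% intervals for the 47 other hyaluronan pathway genes, in the order precursor supply, other hyaluronidases and lysosomal enzymes, other link proteins and lecticans, other receptors, partners of Tnfaip6, versican-cleaving proteases and Cd44 linkers, separated by dotted lines. Adamts4 lies furthest right at 2.19 and Bcan furthest left at -1.29.

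Of 8 genes listed for making or moving the sugar precursors, 2 rose (14.9% of all genes did), none fell (10.0% did) and 6 did not pass. The median difference was -0.03. Ugdh, which makes UDP-glucuronate, stood at 10.95 and 10.98 on the BLM arrays, against 10.14 and 10.22 on the PBS arrays. The groups did not overlap, and the difference was 0.78 (SE 0.08, adjusted p = 0.00288). Gnpnat1, which acetylates glucosamine-6-phosphate on the way to UDP-N-acetylglucosamine, rose by 0.45 (SE 0.09, adjusted p = 0.0177), a call that ended without PBS replicate 1, BLM replicate 1 or BLM replicate 2 (adjusted p = 0.0661, 0.0812 and 0.0996). Among those that did not pass, the nucleotide sugar transporter gene Slc35d2 had the largest difference, -0.40 (adjusted p = 0.0938), and it passed once dim genes were filtered out (adjusted p = 0.0482).

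In breakdown, 2 of 7 other genes rose (14.9% of all genes did), none fell (10.0% did) and 5 did not pass, with a median of 0.06. Both that rose encode lysosomal enzymes that trim sugars from hyaluronan fragments and from other glycans. Hexa, the alpha subunit of beta-hexosaminidase, stood at 12.52 and 12.30 on the BLM arrays, against 10.90 and 11.04 on the PBS arrays, a difference of 1.44 (SE 0.11, adjusted p = 0.00122). Gusb, beta-glucuronidase, stood at 9.66 and 9.62 on the BLM arrays, against 8.60 and 8.58 on the PBS arrays, a difference of 1.05 (SE 0.08, adjusted p = 0.00116). For both genes the groups lay clear of each other. Macrophage genes moved on the same arrays, as given above, and the part of macrophages in the rise of Hexa and Gusb was not tested. Cemip2, which encodes a transmembrane hyaluronan-degrading protein related to Cemip, stood at 10.57 and 10.50 on the BLM arrays, against 10.74 and 10.87 on the PBS arrays. Its difference of -0.27 (95% interval -0.50 to -0.04) did not pass (adjusted p = 0.0938), although it did once dim genes were filtered out (adjusted p = 0.0429) or with cyclic loess scaling (-0.42, adjusted p = 0.0197). The intervals of Cemip and Cemip2 did not overlap. Hyal4, Hyal5, Hyal6 and Spam1 averaged below the median of all genes and did not pass.

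Of the 6 other link proteins and lecticans, 0 rose, 1 fell and 5 did not pass, against 14.9% and 10.0% of all genes that rose and fell, with 5 of the 6 averaging below the median of all genes and a median difference of -0.07. At an unadjusted p under 0.05 the only one of these was the same gene that fell. That gene, Bcan, encodes brevican, a lectican known chiefly from brain matrix. It stood at 6.35 and 6.44 on the BLM arrays, against 7.67 and 7.71 on the PBS arrays. The groups lay wide apart. Bcan differed by -1.29 (SE 0.08, adjusted p = 0.000799), and the difference was -1.34 to -1.24 with 1 array left out. Hapln2, Hapln3, Hapln4, Acan and Ncan did not pass, and Acan had the largest difference among them, at -0.13 (95% interval -0.37 to 0.11).

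Of 9 other hyaluronan receptors and binding proteins, 4 rose (14.9% of all genes did), 1 fell (10.0% did) and 4 did not pass. The median difference was 0.12. Tlr2, an innate immune receptor reported to respond to hyaluronan fragments, stood at 7.48 and 7.52 on the BLM arrays, against 6.52 and 6.46 on the PBS arrays, a difference of 1.01 (SE 0.08, adjusted p = 0.00139). Stab1, a scavenger receptor gene, rose by 0.67 (SE 0.08, adjusted p = 0.00478), and Stab2, whose protein clears hyaluronan from the circulation in liver, by 0.49 (SE 0.09, adjusted p = 0.0138), with all 4 values of Stab2 inside the range of the background rows. Layn, which encodes the hyaluronan receptor layilin, rose by 0.57 (SE 0.10, adjusted p = 0.0134). The call of Layn was lost when either BLM array was left out (adjusted p = 0.0524 and 0.0745). That of Stab2 was lost when any array except PBS replicate 1 was left out (adjusted p = 0.0512 to 0.0785). Habp4 had the largest difference of those that did not pass, at 0.12 (adjusted p = 0.362).

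Lyve1, the hyaluronan receptor of lymphatic endothelium and a close relative of Cd44, fell. It stood at 12.43 and 12.34 on the BLM arrays, against 13.26 and 13.73 on the PBS arrays. The groups did not overlap, and PBS replicate 2 was the highest. The difference was -1.11 (SE 0.17, adjusted p = 0.00825), and -1.35 to -0.88 with 1 array left out. On the same arrays all 5 measured lymphatic endothelial markers rose, against 14.9% of all genes tested. Their summed levels were 47.6 to 47.8 on the BLM arrays, against 41.0 to 41.3 on the PBS arrays. None of the 5 averaged below the median of all genes.

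Prox1, the transcription factor gene that sets lymphatic identity, stood at 8.74 and 8.60 on the BLM arrays, against 6.81 and 6.72 on the PBS arrays, a difference of 1.90 (SE 0.09, adjusted p = 0.000432). Mmrn1 rose by 1.71 (SE 0.10), Flt4, the receptor gene for the lymphatic growth factor VEGF-C, by 1.15 (SE 0.09), and Reln by 0.98 (SE 0.08). Pdpn, which alveolar type 1 cells also express, rose by 0.78 (SE 0.13), a call that ended without PBS replicate 1 (adjusted p = 0.0528). The interval of Lyve1, -1.53 to -0.69, lay below 0 and those of these 5 genes above it. Outside lymphatic vessels, some lung macrophages and blood vessels are known to carry Lyve1, and their part in its fall was not tested. Of 6 measured endothelial markers, 3 rose and none fell on the same arrays, against 14.9% and 10.0% of all genes tested. Their summed levels were 77.3 to 78.4 on the BLM arrays, against 72.5 to 73.7 on the PBS arrays. The macrophage counts are given above.

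**Figure D4:**
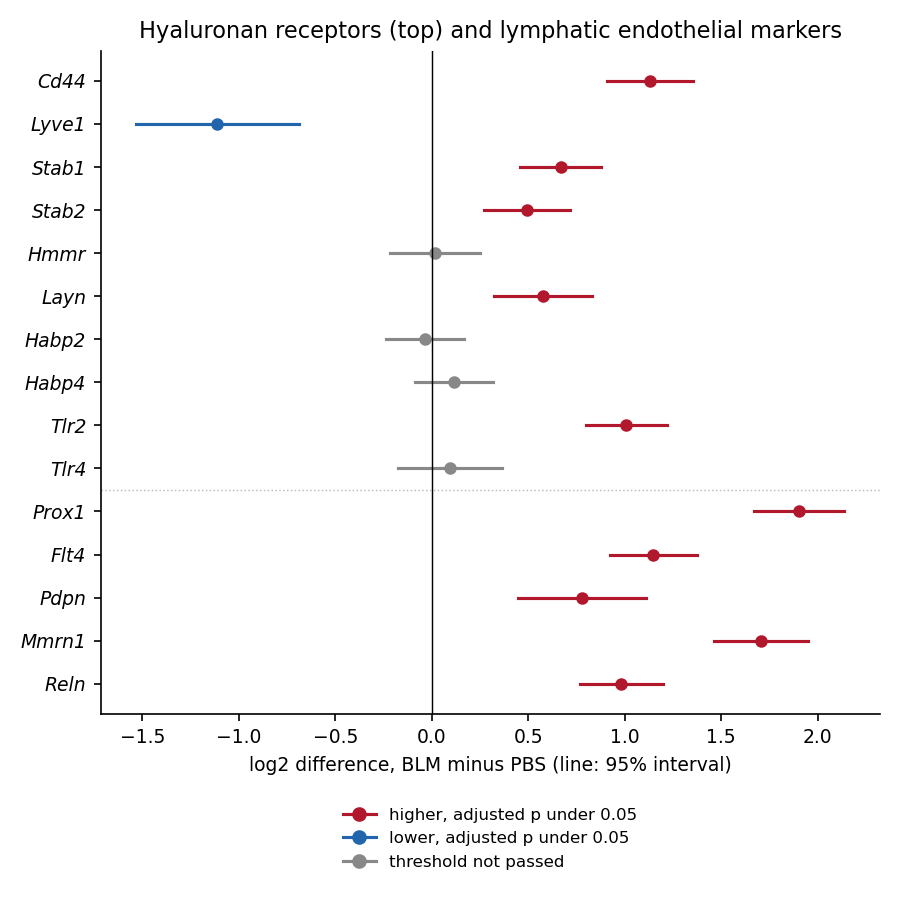
Log2 difference, BLM minus PBS (x axis), with 95% intervals for Cd44 and 9 other hyaluronan receptor or binding protein genes (above the dotted line) and 5 lymphatic endothelial markers (below it). Lyve1, at -1.11, is the only gene shown whose interval lies wholly below 0.

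Of 7 genes listed as partners of Tnfaip6, 2 rose (14.9% of all genes did), 1 fell (10.0% did) and 4 did not pass. Whether the protein of each is a partner of TSG-6 was not tested. The median was 0.17. Itih3, one of the heavy chain genes of inter-alpha-inhibitor, stood at 6.68 and 6.70 on the BLM arrays, against 5.91 and 6.03 on the PBS arrays, a difference of 0.72 (SE 0.09, adjusted p = 0.00430), with both PBS values inside the range of the background rows. Itih4 rose by 0.37 (SE 0.08, adjusted p = 0.0261), a call that ended without any 1 of the arrays (adjusted p = 0.0698 to 0.140), with cyclic loess scaling (0.18, adjusted p = 0.165) and with the replicate number as a block (adjusted p = 0.0511). Itih5 fell by 0.51 (SE 0.08, adjusted p = 0.0110), a call that ended without BLM replicate 1 (adjusted p = 0.0742) or BLM replicate 2 (0.0515). Ambp, which encodes the light chain bikunin, averaged below the median of all genes and did not pass. Ptx3, the gene of the pentraxin that joins heavy-chain-bearing hyaluronan in a shared matrix, differed by 0.40 (95% interval 0.01 to 0.78, adjusted p = 0.127). Leaving out PBS replicate 1 gave 0.60. All 4 values of Ptx3 lay inside the range of the background rows, so the size of its difference is uncertain.

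Of 7 proteases that cleave versican or related proteoglycans, 2 rose (14.9% of all genes did), none fell (10.0% did) and 5 did not pass. The median was 0.15. Adamts4 stood at 7.76 and 8.24 on the BLM arrays, against 5.81 and 5.81 on the PBS arrays. The groups lay far apart, the BLM arrays differing by more than the PBS arrays. Adamts4 rose by 2.19 (SE 0.17, adjusted p = 0.00118), with PBS levels inside the range of the background rows. Adamts1 rose by 0.38 (SE 0.09, adjusted p = 0.0279), a call that ended without any 1 of the arrays (adjusted p = 0.0591 to 0.146), with cyclic loess scaling (0.23, adjusted p = 0.127) and with the replicate number as a block (adjusted p = 0.0554). Adamts8 differed by -0.41 (adjusted p = 0.0666), and passed once dim genes were filtered out (adjusted p = 0.0315) or PBS replicate 1 was left out (-0.56, adjusted p = 0.0304).

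Of the 3 genes of proteins that tie the tail of Cd44 to actin, 1 rose, 1 fell and 1 did not pass. Over all genes tested, 14.9% rose and 10.0% fell. Ezr, ezrin, which is abundant in epithelium, stood at 9.39 and 9.40 on the BLM arrays, against 10.49 and 10.62 on the PBS arrays, a difference of -1.16 (SE 0.09, adjusted p = 0.00116). Of 8 measured alveolar epithelial genes, 3 fell and none rose on the same arrays, against 10.0% and 14.9% of all genes tested. Their summed levels were 100.3 to 101.1 on the BLM arrays, against 103.1 to 104.1 on the PBS arrays. Of 3 airway epithelial genes, 2 fell and none rose, against the same 10.0% and 14.9% of all genes. Their summed levels were 39.8 to 40.0 on the BLM arrays, against 43.2 to 43.4 on the PBS arrays. The part of either cell type in the fall of Ezr was not tested. Msn, moesin, rose by 0.39 (SE 0.09, adjusted p = 0.0308), a call that ended without any 1 of the arrays (adjusted p = 0.0706 to 0.169) and with cyclic loess scaling (0.21, adjusted p = 0.126). Rdx, radixin, differed by -0.19 (adjusted p = 0.165) and passed with cyclic loess scaling (-0.37, adjusted p = 0.0235).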

How the data were processed

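The deposited values are log2 levels, 1 for each transcript cluster. Per the submitters' processing notes, the authors used Affymetrix Expression Console and RMA, a method that removes background, gives all arrays 1 distribution and combines the probes of a cluster. Software versions and genome build: not given in the sources used here. No detection calls were used, and the number of arrays limits the precision.

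Of 72688 rows, the platform annotation lists 32750. The 30604 with 1 symbol were kept with 612 that list 1 gene under current and older symbols, and 1534 naming several genes were left out. Symbols were updated through RefSeq (GRCm38.p6), and the highest-mean row was kept per gene, leaving 30743 genes.

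The fit over all genes used limma 3.58.1 under R 4.3.3 (lmFit and eBayes, two-sided; 2 residual and 3.32 prior degrees of freedom), checked on simulated data. In total 7660 genes (24.9%) passed. Of these, 59.8% rose; under cyclic loess scaling 49.5% of the calls rose.

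All members, every other pathway gene past the threshold and, per list, the largest difference that did not pass were named. The members and lists were chosen with earlier results of these data known. Alternatives were a replicate block, leaving out each array, a filter on dim genes (mean under 6.02), the mean of a gene's rows, a trended and robust prior, median centring and cyclic loess; keeping only rows with 1 symbol was chosen after seeing the data.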

Additional observations from a re-analysis of the deposited data

How the results depend on the processing

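Has2, Vcan and Cd44 kept their calls under all 11 alternatives, and Cemip under the 9 in which it was tested; the filter on dim genes also leaves out Hapln1 and Has3. With 1 array left out, 5 to 6 members rose, against 8 with all arrays, and none fell under any alternative. Has3 differed by -0.13 to 0.0448 in those fits, turning positive only without BLM replicate 1. With 1 array left out, 2306 to 3444 genes rose and 1643 to 2423 fell over all genes, against 4577 and 3083 with all arrays. Both counts were lowest without BLM replicate 1, at 2306 and 1643, and were 2651 and 1694 without BLM replicate 2. The members that rose numbered 5 without PBS replicate 2 and 5 without BLM replicate 2. Of the other pathway genes, 7 to 10 rose with 1 array left out, against 13 (7 without BLM replicate 1 and 7 without BLM replicate 2), and 3 to 5 fell, against 4. The filter on dim genes leaves out 14 of these 47 genes, and 8 of the rest fell, beside 3345 of all 15372 genes kept. Cyclic loess scaling gave 7 of the 47 falling, beside 3909 of all 30743 genes. These fits have fewer samples or genes or another scaling, and the cause of each change was otherwise not tested. The labels give the groups the same replicate numbers but do not say that a number marks a shared batch, and with 2 pairs the pairing could not be settled. The deviations of same-numbered arrays correlated at 0.0097 across genes. With the replicate number as a block, 4039 genes rose and 2711 fell, 7 members rose, all but Hyal2 of the 8, and 11 other pathway genes rose and 4 fell. Another background correction was not run, since the analysis starts from summarised values.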

Other observations

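Has2os, a noncoding RNA gene that lies within the span of Has2 in the RefSeq table, was chosen after its values were seen and belongs to no list above. It stood at 5.66 and 5.89 on the BLM arrays, against 5.42 and 5.63 on the PBS arrays. The groups did not overlap, but BLM replicate 1 lay only just above PBS replicate 2. Its difference was 0.26 (95% interval -0.06 to 0.57, adjusted p = 0.202), which did not pass, and its interval lay below that of Has2. All 4 values lay within the range of the background rows.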
